A study of Mus musculus with 8 samples.

Results

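The 38 genes described here encode the core machinery of macroautophagy, its cargo receptors and a pair of transcription factors that control autophagy and lysosome genes. They were listed by symbol and role, and a row of the count table was taken as a member when its Ensembl ID carried one of these symbols in the GENCODE mouse annotation. All 38 were found among the 55414 gene IDs of the table, and all 38 passed the filter on low counts, together with 13368 genes in all. RNA was measured in bulk in Paneth cells, which sit at the crypt base of the small intestine and secrete antimicrobial peptides. Wild-type mice, C57BL/6J in the study's methods, received PBS or the inflammatory cytokine tumor necrosis factor (TNF), and Paneth cells were sorted from the small intestine after 3 hours. Each treatment had 4 libraries, with no other allele or agent named in the labels. The sources used here give neither the dose of TNF nor the age of the mice.

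Autophagy encloses cytoplasm, organelles or microbes in a double membrane and delivers them to the lysosome. The ULK1 kinase complex starts the process, a class III PI3-kinase complex marks the growing membrane, and a conjugation system led by ATG5, ATG7 and ATG16L1 attaches LC3 and GABARAP proteins to it, where cargo receptors such as p62 (Sqstm1) dock. Paneth cells are a textbook site of autophagy in the gut, since loss of Atg16l1, Atg5 or Atg7 in mice disturbs their secretory granules and a common human variant of ATG16L1 is linked to Crohn's disease.

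Of the 38 genes, 16 changed between TNF and PBS (42.1%), beside 43.0% of all genes tested. A gene was called when its Benjamini-Hochberg adjusted p in edgeR's quasi-likelihood test was under 0.05. Higher in TNF were 9 members (23.7%, beside 23.3% of all genes) and lower were 7 (18.4%, beside 19.6%). At least 2-fold changes were called for 5 members (13.2%, beside 18.0%). The median log2 fold change of the members was 0.04, and that of all genes tested was 0.03. The autophagy genes as a group were thus called about as often as any gene, and the changes lay in single members. The largest rises were those of the receptor genes Sqstm1 and Optn, and the largest fall was that of the receptor gene Calcoco1.

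**Figure D1:**
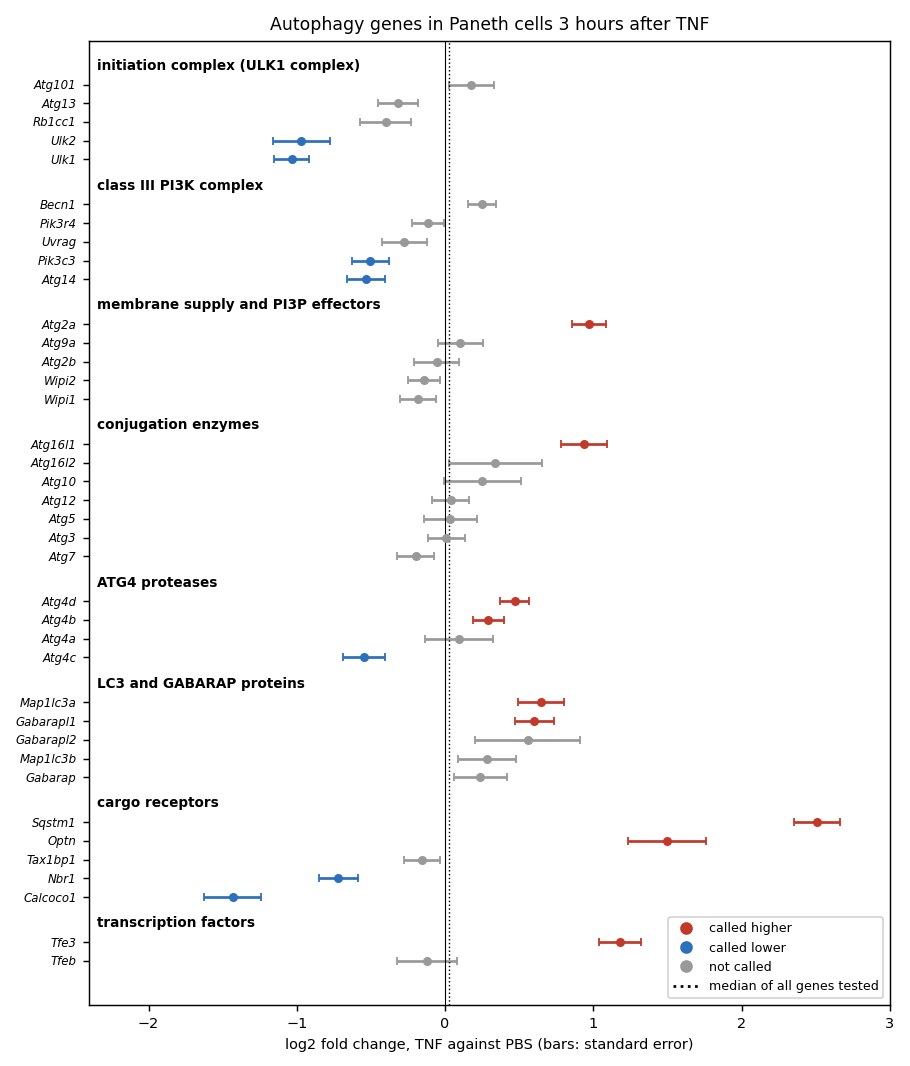
Log2 fold change of TNF against PBS (horizontal axis) with its standard error for each of the 38 autophagy genes, grouped by role, with 4 libraries per group. Sqstm1 stands farthest to the right at 2.51 and Calcoco1 farthest to the left at -1.43, and the dotted line is the median of all genes tested.

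The libraries held between 23824717 and 32576077 counts, and the members between 34 and 29466 counts each. TNF replicate 4 stood apart. Its alpha-defensin genes and Lyz1 took 71.8% of all counts, against 48.2% to 55.3% in the other libraries. TMM, the scaling factor that aligns most genes between libraries, was 0.448 there and 0.995 to 1.36 elsewhere. Paneth cell markers dominated every library, with a summed level of 311085 to 459336 normalized CPM (CPM computed with the TMM-scaled library size) in PBS and 388281 to 1209290 in TNF, where TNF replicate 4 was the highest. The immune markers Cd3e and S100a8 and the stroma markers Col1a2 and Col3a1 were at 0 in all libraries, while the summed immune list was 2.84 to 3.64 normalized CPM in PBS and 4.32 to 7.05 in TNF, and the stroma list 0.223 to 0.453 and 1.23 to 1.70. Goblet markers summed to 3683 to 5942 and 6395 to 7631, with 2 of 7 called higher and 2 lower, enteroendocrine markers to 10.3 to 13.2 and 30.3 to 61.0, with 3 of 4 tested called higher, and stem cell markers to 1455 to 2352 and 1313 to 1856, with 4 of 5 called lower. Enterocyte markers summed to 28.1 to 42.5 and 15.3 to 59.8, with 1 of 7 called lower, and tuft cell markers to 14.5 to 34.7 and 9.24 to 60.8. Their part in the results below was not tested. In bulk RNA, fewer cells of a type and less RNA per cell cannot be told apart.

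Sequence windows at RefSeq starts of the members are shown first, for genes that moved most and for genes that did not. Their regulatory activity was not measured. RefSeq windows of 250 bases before to 50 bases after a start were given for 32 of the 38 members, in 39 windows, each found once in GRCm39. The called members Atg16l1, Map1lc3a and Pik3c3 had no window. A RefSeq start need not be the 5′ end of the gene's span in GENCODE. The 120 bases just before the RefSeq start of Sqstm1 (chr11:50101648-50101767, minus strand) and of Optn (chr2:5068929-5069048, minus strand) belong to the 2 receptor genes that rose, and those of Calcoco1 (chr15:102630614-102630733, minus strand) to the member that fell most. The start of Sqstm1 lies 6037 bases inside its GENCODE span, while those of Optn and Calcoco1 lie 17 and 18 bases inside. GC content was 70.8% for Sqstm1, 58.3% for Optn and 62.5% for Calcoco1.
Sqstm1: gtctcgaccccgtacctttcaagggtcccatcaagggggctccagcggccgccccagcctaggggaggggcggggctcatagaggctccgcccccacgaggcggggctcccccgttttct
Optn: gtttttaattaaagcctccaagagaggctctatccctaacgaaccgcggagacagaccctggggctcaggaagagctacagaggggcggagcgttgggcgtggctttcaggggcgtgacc
Calcoco1: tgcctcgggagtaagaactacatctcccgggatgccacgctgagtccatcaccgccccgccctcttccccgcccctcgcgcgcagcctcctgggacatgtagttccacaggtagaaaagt

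Each window was searched on both strands for 5 letter patterns. CACGTG is the E-box, and TCACGTG, which contains it, is the form bound by TFEB and TFE3. The NF-kB pattern was GGG and TTTCC with any 2 bases between them, the interferon response pattern was GAAA repeated after any 2 bases, and TGACNNNGC is the core of the antioxidant response element. The windows of Sqstm1, Optn, Tfe3, Calcoco1 and Ulk1 held none of them. CACGTG was in 4 of 32 members (12.5%, beside 8.09% of 27025 genes with a window) and TCACGTG in 3 (9.38%, beside 4.29%). The NF-kB pattern was in Wipi2 alone (3.12%, beside 1.89%), the interferon response pattern in Nbr1 alone (3.12%, beside 3.99%), and TGACNNNGC in Ulk2, Atg13, Map1lc3b and Tax1bp1 (12.5%, beside 14.0%). All matches are printed below with the matched letters in capitals, to set them beside the results of the same genes. They lie at chr14:47805874-47805904 (minus strand) for Atg14, chr16:44979085-44979115 and chr16:44979108-44979138 (plus) for the 2 sites of Atg3, chr10:44144309-44144338 (plus) for Atg5, chr6:114647912-114647942 (plus) for Atg7, chr5:142615195-142615228 (plus) for Wipi2 and chr11:101443459-101443492 (plus) for Nbr1, all in GRCm39. Those of TGACNNNGC lie at chr11:61745915-61745947 (minus) for Ulk2, chr2:91541159-91541187 (minus) for Atg13, chr8:122317169-122317201 (plus) for Map1lc3b and chr6:52690933-52690965 (plus) for Tax1bp1. The RefSeq start beside the match is 28013 bases inside the GENCODE span for Atg7, 2259 for Atg5, 2215 for Atg14 and 1886 for Wipi2, and 77 to 518 for the other genes with a match. The second site of Atg3 also matches on the minus strand, shifted by 1 base (chr16:44979109-44979139), and only its plus-strand match is in capitals.
Atg14: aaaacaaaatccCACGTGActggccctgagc
Atg3, first site: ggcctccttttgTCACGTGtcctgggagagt
Atg3, second site: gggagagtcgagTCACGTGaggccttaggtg
Atg5: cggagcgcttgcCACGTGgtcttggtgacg
Atg7: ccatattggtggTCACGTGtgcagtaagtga
Wipi2: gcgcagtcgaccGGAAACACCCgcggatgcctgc
Nbr1: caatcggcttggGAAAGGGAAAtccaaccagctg
Ulk2: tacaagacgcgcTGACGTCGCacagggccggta
Atg13: cgccccacGCCGCGTCAtcagcacctcgg
Map1lc3b: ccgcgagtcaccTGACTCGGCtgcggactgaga
Tax1bp1: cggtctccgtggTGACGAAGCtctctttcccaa
Among these genes Atg14, Nbr1 and Ulk2, each with a different pattern, were called, all lower in TNF. Atg3, Atg5, Atg7, Wipi2, Atg13, Map1lc3b and Tax1bp1 were not called. Of all genes tested 43.0% were called, and 19.6% were called lower. A match describes letters only, and binding was not measured.

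Of the 5 cargo receptors 2 rose, 2 fell and 1 was not called, beside 23.3% higher and 19.6% lower among all genes. Sqstm1 (ENSMUSG00000015837, chromosome 11, 50089572 to 50107684, minus strand) encodes p62, which carries ubiquitin-tagged cargo to LC3 and is itself degraded with it. Its normalized CPM were 139, 161, 168 and 157 in PBS replicates 1 to 4 and 796, 826, 1035 and 899 in TNF replicates 1 to 4. Every TNF library lay far above every PBS library. The rise was 5.69-fold (log2 fold change 2.51, SE 0.15, adjusted p = 8.56e-07), and it was 2.52 on the log2 scale without TNF replicate 4. An antisense neighbour, Mrnip, covers 1412 exon bases of Sqstm1 but held only 4 to 35 counts in a library, against 4263 to 29466 for Sqstm1. Mgat4b, on the opposite strand too, shares 141 exon bases and held 819 to 2894 counts. Of the 75-base stretches of the canonical Sqstm1 transcript 75.1% were found in no other gene.

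Optn (chromosome 2, 5022703 to 5068945, minus strand) encodes optineurin, a receptor for bacteria and damaged mitochondria that works with the kinase TBK1. It stood at 6.97, 4.95, 4.69 and 11.6 normalized CPM in PBS and at 18.3, 18.6, 23.4 and 20.02 in TNF. The groups did not overlap, although PBS replicate 4 lay above the other PBS libraries. The log2 fold change was 1.496 (SE 0.26, adjusted p = 0.000954). The antisense gene 4930551O13Rik, which shares 286 exon bases with Optn, rose too (log2 fold change 1.31) but held at most 48 counts.

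Calcoco1 (chromosome 15, 102614354 to 102630631, minus strand), known as a receptor for parts of the endoplasmic reticulum and Golgi, fell. Its values were 15.2, 13.4, 14.9 and 21.4 in PBS and 5.89, 5.30, 7.86 and 4.81 in TNF. The highest TNF library stayed below the lowest PBS library, and the log2 fold change was -1.43 (SE 0.19, adjusted p = 0.000181). Nbr1 (chromosome 11, 101442962 to 101472781, plus strand), which binds ubiquitin alongside p62, was abundant in PBS at 208, 196, 193 and 195 normalized CPM and stood at 122, 117, 99.2 and 143 in TNF. These groups did not overlap either, and the log2 fold change was -0.72 (SE 0.13, adjusted p = 0.00139). Tax1bp1, the fifth receptor, was not called at -0.15 on the log2 scale (adjusted p = 0.326).

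Because the receptors bind the same LC3 and GABARAP proteins, their levels were set side by side per kilobase of canonical transcript. Sqstm1 made up 40.1% ± 3.16 of the summed receptor level in PBS and 83.1% ± 1.62 under TNF (SD, n = 4), where single libraries ranged from 81.8% to 85.5%. Nbr1 had a share of 35.4% ± 2.10 in PBS and 7.94% ± 1.54 in TNF. The ratio of Sqstm1 to Nbr1 was 0.961, 1.18, 1.25 and 1.15 in the PBS libraries and 9.35, 10.1, 14.9 and 9.01 in the TNF libraries. The groups did not overlap, and the gap between them exceeded the range within either. The share of Tax1bp1 was 18.7% ± 1.71 and 6.18% ± 0.468 while its own level was 22.4 ± 2.66 and 20.1 ± 1.25 normalized CPM per kilobase, since a share also falls when the sum grows. Calcoco1 went from 3.67% ± 0.666 to 0.494% ± 0.0810. Optn kept a small share, 2.16% ± 0.899 and 2.27% ± 0.0496. The summed receptor level was 120 ± 4.24 normalized CPM per kilobase in PBS and 327 ± 32.7 in TNF. With the union of all annotated exons as length, the share of Sqstm1 was 33.9% and 80.5%, and Nbr1 then exceeded Sqstm1 in PBS at 44.9%.

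**Figure D2:**
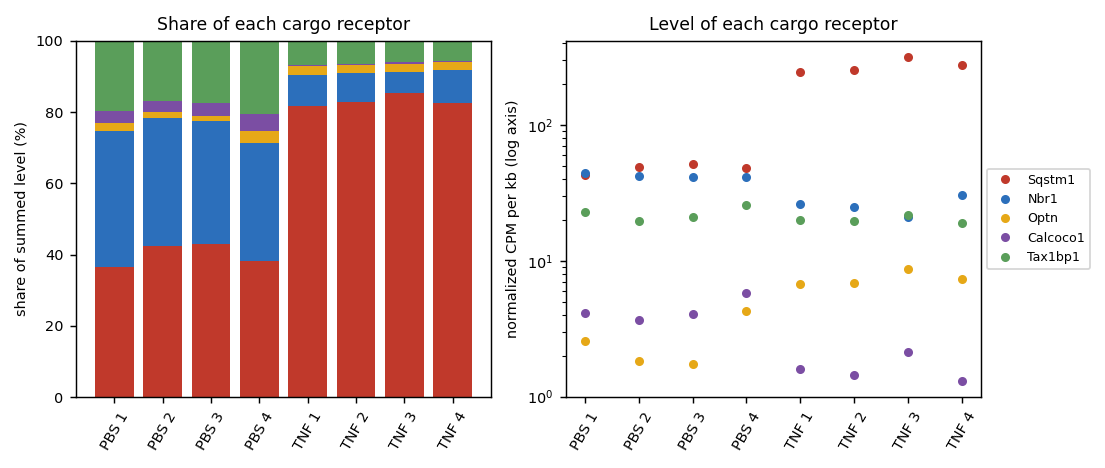
Share of the summed cargo receptor level taken by each of 5 receptors (left, percent) and level of each receptor (right, normalized CPM per kilobase of canonical transcript, log axis) in each of the 8 libraries. Sqstm1 and Nbr1 lie close together in the PBS libraries and far apart in the TNF libraries, where Sqstm1 holds 81.8% to 85.5% of the sum.

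Of the genes that start autophagy, those for the kinases were lower. Ulk1 (chromosome 5, 110931496 to 110957995, minus strand) encodes the kinase that receives signals from mTORC1 and AMPK. It was at 27.2, 25.8, 26.7 and 28.5 normalized CPM in PBS and at 15.8, 12.01, 12.7 and 12.2 in TNF. All TNF libraries were far below the narrow PBS range, at -1.03 on the log2 scale (SE 0.12, adjusted p = 5.61e-05). Its paralog Ulk2 went from 8.90, 8.56, 9.42 and 11.7 to 5.11, 4.85, 6.28 and 3.18, again without overlap (log2 fold change -0.97, SE 0.19, adjusted p = 0.00225). The other subunits of the complex were not called: the scaffold Rb1cc1 (FIP200) at -0.40, Atg13 at -0.32 and Atg101 at 0.18 on the log2 scale. Rb1cc1 and Atg13 were close to the threshold, with adjusted p = 0.0846 and 0.0821.

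The class III PI3-kinase complex produces the lipid PI3P on the forming membrane. Its catalytic subunit Pik3c3 (VPS34) was lower, with 15.8, 17.5, 13.8 and 16.7 normalized CPM in PBS and 12.8, 11.3, 10.1 and 10.7 in TNF (log2 fold change -0.51, SE 0.12, adjusted p = 0.00747). Atg14, the subunit that directs the complex to autophagy, went from 6.89, 6.36, 5.87 and 6.61 to 4.19, 4.54, 4.42 and 4.73 (log2 fold change -0.53, SE 0.13, adjusted p = 0.00651). Both genes had every TNF library below every PBS library. Becn1 (Beclin 1), the scaffold of the complex, had 45.2, 41.1, 41.8 and 46.7 in PBS and 50.3, 53.5, 52.7 and 51.2 in TNF. Its groups did not overlap, yet it missed the threshold (log2 fold change 0.25, SE 0.10, adjusted p = 0.0594), and 54.3% of its 75-base stretches were found in no other gene. Non-overlap was seen for 17 of the 38 members (44.7%, beside 42.1% of all genes), namely the 16 called genes and Becn1. Uvrag, which binds Beclin 1 in place of Atg14 in a separate complex, and the regulatory subunit Pik3r4 were not called at -0.27 and -0.12.

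Among the genes that supply and shape the membrane, Atg2a changed. Its product moves lipids into the growing phagophore. Normalized CPM were 25.8, 23.3, 23.4 and 25.2 in PBS and 43.2, 51.3, 43.6 and 53.7 in TNF, a gap of about 2-fold between groups that did not overlap (log2 fold change 0.97, SE 0.11, adjusted p = 5.99e-05). Its paralog Atg2b, with the same activity, was at -0.05 (SE 0.15, adjusted p = 0.799). The difference between the paralogs was not tested. The scramblase gene Atg9a and the PI3P-binding genes Wipi1 and Wipi2 were not called, at 0.10, -0.18 and -0.14.

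Of the 7 genes for the enzymes that conjugate LC3, Atg16l1 was called and the other 6 were not, beside 43.0% called among all genes. Atg16l1 (chromosome 1, 87683592 to 87720150, plus strand) encodes the subunit that places the ATG12-ATG5 conjugate on the membrane. It was at 7.48, 10.3, 8.08 and 11.4 normalized CPM in PBS and at 16.0, 16.9, 18.3 and 20.4 in TNF. Every TNF library exceeded every PBS library, and the fitted log2 fold change between the groups was 0.94 (SE 0.16, adjusted p = 0.00071). Atg5, its partner, had 24.1, 27.2, 27.8 and 21.7 in PBS and 20.9, 25.2, 21.3 and 36.3 in TNF. The ranges overlapped and TNF replicate 4 was the high library (log2 fold change 0.04, SE 0.18, adjusted p = 0.891). Atg7, the E1-like enzyme that activates the system, had 51.5, 59.6, 54.2 and 56.7 in PBS and 50.5, 49.0, 55.4 and 38.2 in TNF, also with overlap (log2 fold change -0.20, adjusted p = 0.232). The E2-like enzymes Atg3 and Atg10 were at 0.01 and 0.25, Atg12 at 0.04, and Atg16l2, the least abundant member per kilobase, at 0.34.

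The 4 ATG4 proteases cut LC3 and GABARAP before and after conjugation. Of their genes 2 were called higher and 1 lower, beside 23.3% higher and 19.6% lower among all genes. Atg4d rose from 31.2, 31.4, 32.7 and 29.5 to 39.7, 44.9, 44.2 and 44.0 normalized CPM (log2 fold change 0.47, SE 0.10, adjusted p = 0.00269). It shares 2452 exon bases with the antisense gene Kri1, which was also higher at 0.91, and since the use of strand in counting is not stated, the reads of both cannot be told apart. Atg4c fell from 10.1, 10.05, 10.5 and 8.35 to 6.11, 7.86, 5.79 and 6.96 (log2 fold change -0.55, SE 0.14, adjusted p = 0.0098). The groups were separate for both genes. Atg4b was called higher by a small margin (log2 fold change 0.29, SE 0.11, adjusted p = 0.0451) and lost its call in 7 of 8 fits without 1 library, and Atg4a was not called at 0.09.

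All 5 LC3 and GABARAP genes, the membrane-bound tags to which receptors dock, had a positive log2 fold change, as did 6907 of the 13368 genes tested, and 2 were called higher, beside 23.3% of all genes. The sign was negative for 3 of them under library size alone, and for Gabarapl2 also without TNF replicate 4. Map1lc3a was at 6.89, 9.15, 9.42 and 8.29 normalized CPM in PBS and at 13.2, 10.5, 13.4 and 15.8 in TNF (log2 fold change 0.65, SE 0.15, adjusted p = 0.00636). Gabarapl1 went from 27.5, 38.4, 31.9 and 38.3 to 46.2, 55.8, 50.3 and 54.1 (log2 fold change 0.60, SE 0.13, adjusted p = 0.00398). For both genes the lowest TNF library lay above the highest PBS library. An antisense gene, 1700101I11Rik, covers 1146 exon bases of Gabarapl1 and was higher too (0.48).

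Map1lc3b, the commonly used marker LC3B, had 71.0, 80.5, 78.6 and 88.7 normalized CPM in PBS and 72.3, 84.9, 88.3 and 143 in TNF. TNF replicates 1 to 3 lay within the PBS range and replicate 4 far above it (log2 fold change 0.28, adjusted p = 0.269, and 0.05 without TNF replicate 4). Gabarapl2 showed the same layout, with TNF replicate 4 at 63.0 and the other TNF libraries at 19.1 to 21.1, so that its log2 fold change of 0.56 (adjusted p = 0.226) became -0.03 without that library. Gabarap was at 0.24, and 0.05 without it. Under library size alone, a scaling that moved the median of all genes by -0.40, these 3 genes had negative values (-0.23, -0.08 and -0.24). Within the family, Map1lc3b was at 44.6% ± 3.30 and 42.6% ± 2.10 of the summed level per kilobase, Gabarap at 34.9% ± 3.58 and 32.6% ± 1.42, and Gabarapl1 at 9.27% ± 1.13 and 11.6% ± 2.33 (SD, n = 4). Map1lc3a held 5.08% ± 0.415 and 6.51% ± 1.24, with TNF replicates 1 to 3 above every PBS library. Gabarapl2 held 6.11% ± 0.626 and 6.66% ± 2.42, with 10.3% in TNF replicate 4 and 5.31% to 5.54% in the other TNF libraries. With the union of all exons as length, Gabarap held the largest share in PBS at 63.9% and Map1lc3b 12.3%, so the order of these 2 genes depends on the transcript length assumed.

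**Figure D3:**
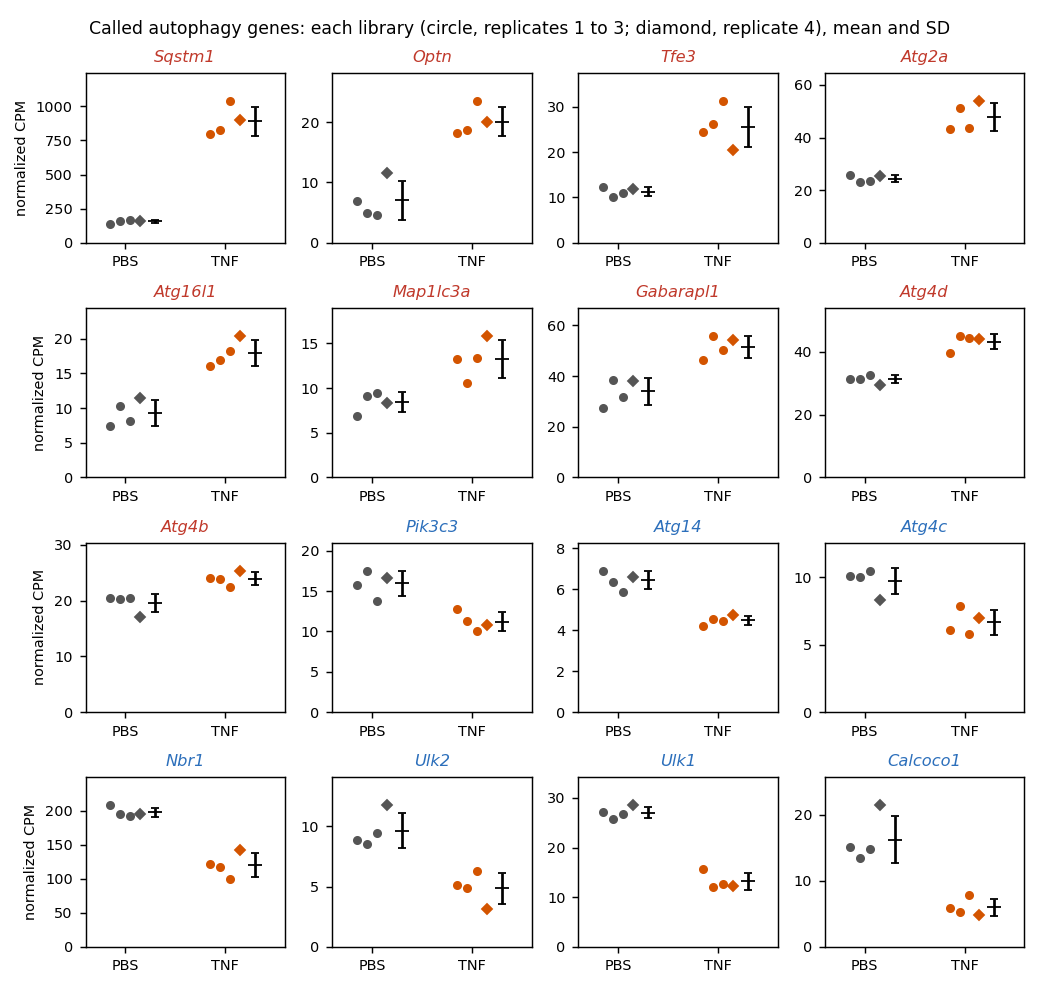
Normalized CPM of the 16 called members in each library (circles, replicates 1 to 3; diamonds, replicate 4), with the mean and SD of each group beside the points and every axis starting at 0. No called member has overlapping groups; Sqstm1 shows the widest gap and Atg4b the narrowest call, at an adjusted p of 0.0451.

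The transcription factors TFEB and TFE3 enter the nucleus when mTORC1 is off and bind promoters of autophagy and lysosome genes. Tfe3 (chromosome X, 7628761 to 7641444, plus strand) was at 12.3, 10.2, 11.0 and 11.7 normalized CPM in PBS and at 24.4, 26.2, 31.1 and 20.5 in TNF. All TNF libraries were higher (log2 fold change 1.18, SE 0.14, adjusted p = 7.15e-05). Tfeb was at 4.00, 4.06, 4.02 and 4.98 in PBS and 3.41, 3.22, 5.48 and 3.52 in TNF, with overlapping groups (log2 fold change -0.12, SE 0.20, adjusted p = 0.651). The ratio of Tfe3 to Tfeb per kilobase was 1.83 ± 0.211 in PBS and 4.61 ± 0.801 in TNF (SD, n = 4). Nuclear entry of either protein was not measured.

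Ordered by level per kilobase of canonical transcript, Map1lc3b (89.6 ± 8.18), Gabarap (70.1 ± 7.56), Sqstm1 (47.9 ± 3.73), Nbr1 (42.3 ± 1.44) and Tax1bp1 (22.4 ± 2.66) led the members in PBS. In TNF the order was Sqstm1 (272 ± 32.5), Map1lc3b (109 ± 35.4), Gabarap (82.7 ± 21.8), Gabarapl1 (28.4 ± 2.35) and Nbr1 (25.7 ± 3.86). Map1lc3b and Gabarap in TNF, and Gabarapl1 and Nbr1 in TNF, differed by less than their spread. The order depends on the length assumed: per kilobase of the union of exons it was Gabarap (54.8), Nbr1 (25.2), Sqstm1 (19.1), Map1lc3b (10.5) and Gabarapl1 (9.20) in PBS, and Sqstm1 (108), Gabarap (64.6), Nbr1 (15.3), Gabarapl1 (14.0) and Map1lc3b (12.8) in TNF.

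RLE scaling called 15 members and 5725 of all genes. TMM without the Defa genes and Lyz1 called 16 members and 5754 of all genes. Scaling by library size alone lowered the calls among all genes from 5746 to 3182 (23.8%, with 5.66% higher and 18.1% lower). It called 7 members, with Sqstm1 the 1 higher and Ulk1, Ulk2, Atg14, Nbr1, Calcoco1 and Atg4c lower. The median of all genes was then -0.38 and that of the members -0.40. Optn (1.06), Tfe3 (0.83), Atg2a (0.54), Atg16l1 (0.51), Map1lc3a (0.23), Gabarapl1 (0.20), Atg4d (0.08) and Pik3c3 (-0.89) kept their sign without passing the test, and Atg4b turned to -0.10.

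**Figure D4:**
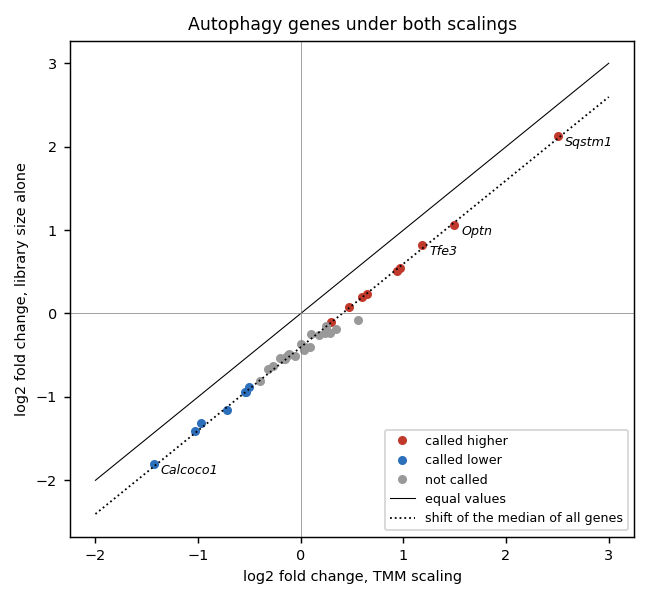
Log2 fold change of the 38 members with TMM scaling (horizontal) and with library size alone (vertical). The points follow the dotted line, which is the shift of the median of all genes by -0.40, and Sqstm1 is the highest under both.

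Genes around the machinery were described from 5 further lists, in which 50 of 117 tested genes were called, 21 higher and 29 lower. Among all genes tested 43.0% were called, 23.3% higher and 19.6% lower, with a median log2 fold change of 0.03, and the lists are to be read against these shares. Of 17 other core and regulatory autophagy genes 7 were higher and 4 lower (64.7%, median 0.35). With library size alone the higher count was 1, and it was 4 when PBS replicate 1 or TNF replicate 2 was left out. The lower count was 2 without PBS replicate 2, PBS replicate 3 or TNF replicate 3. Tbk1, the kinase that phosphorylates optineurin and p62, had 15.8 ± 3.13 normalized CPM in PBS and 54.2 ± 5.85 in TNF (log2 fold change 1.78, adjusted p = 7.89e-06). Trim21, a ubiquitin ligase and antibody receptor, and Nrbf2, a subunit of the PI3-kinase complex, were higher at 0.96 and 0.92. Zfyve1 (DFCP1, a PI3P-binding protein of the phagophore cradle), Atg9b and Rubcn (Rubicon, an inhibitor of the PI3-kinase complex) were lower at -1.26, -0.96 and -0.90. Atg9b had a mean of 0.941 normalized CPM in PBS and 0.491 in TNF (adjusted p = 0.0430), and its call was lost in 5 of 8 fits without 1 library.

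Upstream of ULK1, the list of mTORC1, AMPK and Rag genes held 5 higher and 8 lower of 29 tested (44.8%, beside 43.0% of all genes, median -0.24), with 1 higher under library size alone. The 3 sestrins, which restrain mTORC1 when amino acids are short, were the largest falls: Sesn1 from 7.12 ± 0.274 to 1.83 ± 0.401 (log2 fold change -1.97), Sesn3 at -1.80 and Sesn2 at -1.66. Prkab1, a regulatory subunit of AMPK, rose from 11.5 ± 0.480 to 35.1 ± 4.84 (1.61, adjusted p = 3.84e-06). Ddit4 (REDD1), another brake on mTORC1, and the GTPase gene Rraga were higher at 0.93 and 0.67. Of the brakes on mTORC1 named here, the 3 sestrins were lower and Ddit4 was higher, and other brakes in the list are not described.

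Downstream, 14 genes of autophagosome-lysosome fusion held 5 higher and 3 lower (57.1%, beside 43.0% of all genes, median -0.23), with 1 higher under library size alone. Plekhm1, an adaptor that links RAB7 and LC3 to the fusion machinery, had 12.5 ± 1.89 normalized CPM in PBS and 83.8 ± 8.92 in TNF (log2 fold change 2.75, adjusted p = 3.26e-07), a larger change than that of any of the 38 members. Rab7 and Vamp8 were higher at 0.62 and 0.55, while Stx17, the SNARE of the autophagosome, was lower at -1.09, and Vps33a and Tecpr1 at -0.48 and -0.46. Vamp8 was at 73.1 normalized CPM in TNF replicate 4 and 37.1 to 43.5 in the other TNF libraries, and its log2 fold change was 0.31 without replicate 4. The calls of Vamp8 and Tecpr1, with adjusted p = 0.0437 and 0.0423, were each lost in 5 of 8 fits without 1 library. Receptors for single organelles had 0 higher and 5 lower of 16 (31.2%, beside 43.0% of all genes, median -0.27), led by Retreg2 (-0.78), the ferritin receptor Ncoa4 (-0.67) and the mitophagy kinase Pink1 (-0.52). There was 1 higher without TNF replicate 4, and the lower count was 8 without PBS replicate 4 and 3 under library size alone. Of 41 lysosome genes 4 were higher and 9 lower (31.7%, beside 43.0%, median -0.11). The lower count was 5 without PBS replicate 2, PBS replicate 3 or TNF replicate 1, and library size alone left 0 higher and 4 lower. Scarb2, a lysosomal membrane protein, was at 1.17, the cathepsin gene Ctsz at 0.73 and the proton pump subunit Atp6v1a at 0.65, whereas the hydrolase genes Idua, Naglu and Tpp1 were at -1.09, -0.75 and -0.70.

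**Figure D5:**
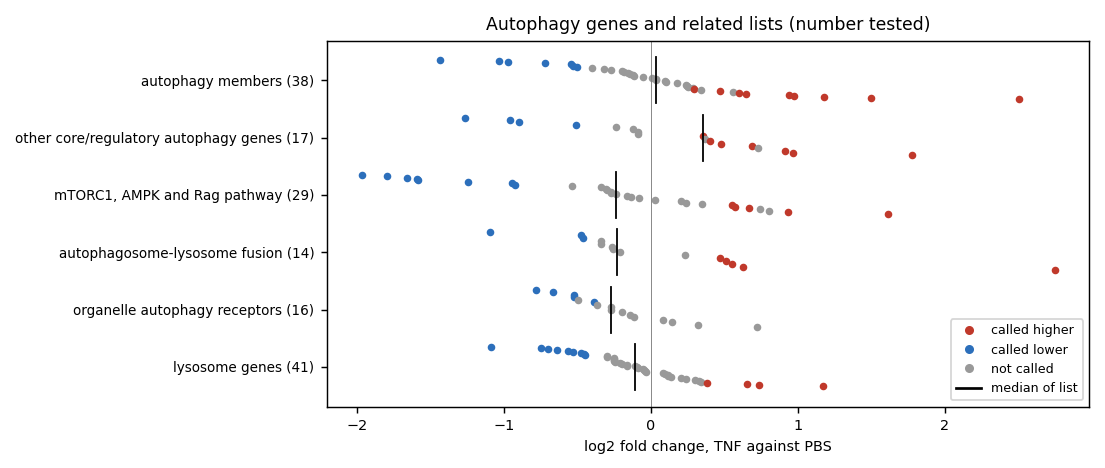
Log2 fold change of TNF against PBS for the 38 members and for the tested genes of 5 related lists, with the number tested in parentheses and the median of each list as a vertical bar. Higher and lower calls occur in every list but the organelle receptors, where 0 were higher, and Plekhm1 at 2.75 is the point farthest right.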

How the data were processed

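Poly(A) RNA libraries were made with a stranded kit from sorted Paneth cells. The authors deposited raw counts for 55414 Ensembl gene IDs, 1 column per library, without normalization. The submitters' processing notes name the mm39 build, FastQC 0.12, STAR 2.7.10a and DESeq2. The counter, its strand setting and the treatment of reads that match several genes are not stated in the sources used here, so that overlapping genes, antisense genes and near-identical copies are uncertain. Library totals were 23824717 to 32576077 counts.

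IDs were matched to GENCODE release 39 for mouse (GRCm39); 54749 had a match. Counts were tested with the quasi-likelihood test of edgeR 4.0.16 in R 4.3.3, with TMM factors, filterByExpr and no covariate, on all 8 libraries. P-values were adjusted by Benjamini-Hochberg over 13368 genes and called under 0.05. The design states biological replicates; p-values measure the spread between these 4 libraries per group. Levels are normalized CPM per kilobase of canonical transcript. Promoter windows came from RefSeq (table build GRCm38.p6) and were placed by exact match in GRCm39. Uniqueness was the share of 75-base stretches of the canonical transcript found in no other gene. In simulated counts, 58 of 100 genes changed 2-fold and 92 of 96 changed 4-fold were recovered. Far fewer genes were changed in the simulation than were called in the data, so these rates do not carry over.

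The members, the related lists and the marker lists were chosen with earlier results of these data known, so no test was made over a list. By rule, values in every library are given for called members, up to 8 higher and 8 lower by size of change, and for 11 genes whatever their result; in each related list up to 3 called genes per direction are named. Alternatives were RLE scaling, library size alone, TMM without Defa genes and Lyz1, other filters, DESeq2 1.42.0, limma-voom (3.58.1) with and without library weights, an adjusted p under 0.01, a block for the replicate number, and leaving out each library. The union of exons as length was added after the data were seen.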

Additional observations from a re-analysis of the deposited data

Results flagged for a closer look

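Within each group of 4 libraries, the highest or lowest value was set apart when its gap to the next value, as a share of the range, passed Dixon's critical value. Chance gives about 1 such case in 20 groups; there were 13 in 130 groups over the named genes, and 7 in the 76 groups of the members. In TNF replicate 4, the library with the highest share of defensin counts, 3 members stood high: Gabarapl2 at 63.0 normalized CPM (others 19.1 to 21.1), Gabarap at 203.1 (others 123 to 133) and Atg4a at 9.19 (others 4.30 to 5.02). Only 48.6% of the 75-base stretches of Atg4a are found in no other gene, and 86.8% of those of Gabarapl2. In PBS replicate 4, Atg3 was high at 24.4, Tfeb high at 4.98 and Atg4b low at 17.1. Tfeb was also high in TNF replicate 3, at 5.48.

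Among the related genes, Rraga was high in TNF replicate 4 at 54.1 and Sesn1 low in TNF replicate 3 at 1.23. Sesn2 and Retreg2 were low in PBS replicate 1, at 8.82 and 42.0. Ncoa4 was high in PBS replicate 3 at 22.1, and Atp6v1a low in PBS replicate 4 at 30.4.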

How the results depend on the processing

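Of the 16 called members, 15 kept their call in all 8 fits without 1 library, all 16 in DESeq2 and limma-voom, and 15 with the replicate block. The exception was Atg4b, also lost under RLE scaling (0.28), without a filter (0.25), with the block (0.29) and under an adjusted p of 0.01. The replicate numbers did not pair the libraries (correlations of same-numbered libraries from -0.144 to 0.0663, of others from -0.131 to 0.241), and the block called 15 members and 5087 of all genes. Becn1 was called in DESeq2, with library weights and without TNF replicate 4, Rb1cc1 without PBS replicate 3, and Atg13 with library weights and without PBS replicate 4.

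Library size alone called 7 members, 1 of them higher, and 3182 of all genes; the median of the members was -0.40. Higher calls fell there to 1 among other core genes, 1 in the mTORC1 list, 1 in fusion and 0 among lysosome genes, and lower calls to 3 among organelle receptors and 4 among lysosome genes. It reversed Atg101 (-0.26), Becn1 (-0.15), Atg9a (-0.25), Atg3 (-0.37), Atg5 (-0.43), Atg10 (-0.21), Atg12 (-0.41), Atg16l2 (-0.18), Atg4a (-0.40), Atg4b (-0.10), Map1lc3b (-0.23), Gabarap (-0.24) and Gabarapl2 (-0.079). Small values also crossed 0 for Atg3 (DESeq2 -0.0011, RLE -0.0024, 1 CPM filter -0.0054, no filter -0.030), Atg5 (limma-voom -0.012, weights -0.15, no filter -0.024), Atg12 (weights -0.0038, no filter -0.014), Atg4a (limma-voom -0.015, weights -0.18) and Gabarapl2 (weights -0.013). The cause was not tested.

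The block and an adjusted p under 0.01 each left 2 other core genes lower, and the latter also 3 organelle receptors and 4 lysosome genes. Library weights gave 13 lower in the mTORC1 list, 5 in fusion, 10 among organelle receptors (1 higher) and 16 among lysosome genes; the 1 CPM filter gave 5 lower in fusion. Without 1 library, members called ranged from 15 to 17, and all genes called from 4757 to 6923. Other core genes ranged from 4 to 7 higher and 2 to 4 lower. Organelle receptors ranged from 0 to 1 higher and 5 to 8 lower, and lysosome genes from 5 to 12 lower. Over the same fits the log2 fold change ran from -0.00042 to 0.22 for Atg9a, -0.13 to 0.034 for Atg2b, -0.077 to 0.074 for Atg3, -0.15 to 0.12 for Atg5, -0.044 to 0.083 for Atg12, -0.17 to 0.18 for Atg4a and -0.026 to 0.72 for Gabarapl2. In simulated counts 58 of 100 genes changed 2-fold were recovered, but far fewer genes were changed there than were called here. That rate is therefore not the rate for these members. An uncalled member is not shown to be unchanged.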
